A study of Ciona robusta with 9 samples.

Results

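The genes described here were chosen for a lower mean log2 level, relative to control embryos, in embryos that carried Brachyury under Tbx6-r.b regulatory DNA, and for a smaller mean log2 difference from control with Brachyury under Etr1 regulatory DNA. Not each of them kept this order in every pair or in mean counts, as given below for KH.S1404.2, KH.S899.1 and others. They number 64 of the 15284 gene models measured. Each replicate number was treated as a pair of libraries, and the log2 change with Tbx6-r.b>Bra (T) or Etr1>Bra (E) was taken within each pair as log2 of (normalized count + 1) over the same in control. A gene was kept with a control mean of at least 50 normalized counts, a mean T of at most −0.5, T under 0 in all 3 pairs, and a mean E at least 0.3 above the mean T. Of 9053 genes with that control mean, 95 had such a mean T, 87 of these had T under 0 in every pair, and 65 of those also met the last condition. KH.C14.307 and KH.C3.751 were left out by name, and only KH.C3.751 would otherwise have been kept. All 9 libraries chose the members, so their T, their E and the difference between the constructs are given as descriptions, with no test.

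RNA of whole Ciona robusta embryos was sequenced; this sea squirt forms a swimming larva with a tail of muscle around a notochord. Fertilized eggs without their chorion received a plasmid by electroporation and grew at 21 °C to Hotta stage 19.5, with 400 embryos collected per sample. Control embryos carried Bra>GFP, in which regulatory DNA of Bra drives green fluorescent protein. The other embryos carried a fusion of Venus, a fluorescent protein, with Bra, either as Etr1>Venus-Bra (here Etr1>Bra) or as Tbx6-r.b>Venus-Bra (here Tbx6-r.b>Bra), and each of the 3 groups had 3 libraries. Beyond calling the replicates biological, the labels do not say whether they came from separate fertilizations, so the spread reported here is that between these samples. Neither driver was tested with a plasmid lacking Bra, so effects of Bra, of the driver and of the reporter protein cannot be told apart. Control values are given as scaled with the Tbx6-r.b>Bra libraries; scaled with the Etr1>Bra libraries they were about 1% higher, and E was taken on that scale. The libraries held between 9043181 and 10399304 gene-assigned reads.

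Brachyury is a T-box transcription factor that in ascidians is expressed in the notochord lineage and is required for notochord formation. Tbx6-r.b, another T-box factor, acts in the ascidian tail muscle lineage, and its regulatory DNA is used to drive transgenes there. Etr1 encodes an RNA-binding protein of the nervous system, and its regulatory DNA is used to reach neural cells. Electroporated plasmids are inherited mosaically in ascidian embryos, so not every cell of the intended tissue carries the transgene. In whole-embryo RNA, fewer cells of a type and less RNA per cell cannot be told apart.

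The deposited tables give KH gene IDs without names, and none of the 15284 IDs was found in the reference gene table of the species. The members are therefore called by ID and no role is given to them. Whether they include genes of muscle, notochord or any other tissue was not tested.

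The members were mostly moderately lower with Tbx6-r.b>Bra. Their median T was −0.70, with quartiles of −0.82 and −0.60, against a median of −0.02 over all 9053 genes with a control mean of at least 50. In terms of normalized counts, the members kept a median of 62.8% of their control mean with Tbx6-r.b>Bra, in a range from 11.01% to 75.2%. Only 5 members had a mean T of −1 or less, 18 lay between −1 and −0.75, and the other 41 lay above −0.75. With Etr1>Bra the median E was −0.22, against −0.03 over the 9053 genes, and the members kept a median of 86.6% of control. The mean E was under 0 in 61 of 64 members, where 56.4% of the 9053 genes had such a mean. Both comparisons use the same 3 controls and the members were chosen for a low T, so a control value that was high by chance lowers E as well, and nothing is read from this count. It was 45 without pair 3, and 41 members had E of both signs among the pairs. The rule set no upper limit on how low E could be, only on its distance from T.

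**Figure D1:**
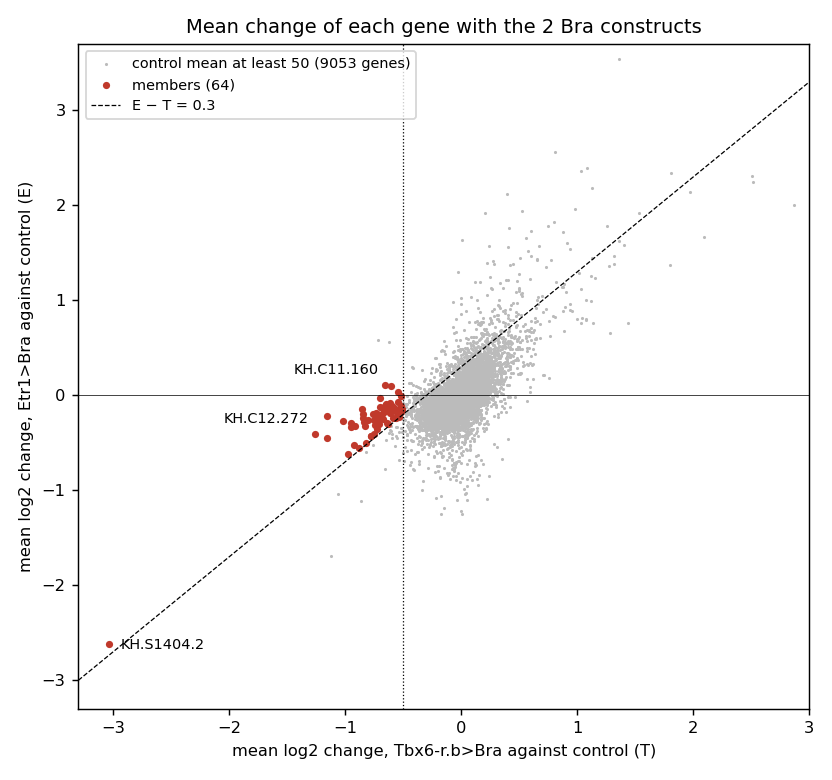
Mean log2 change with Tbx6-r.b>Bra (x axis) against mean log2 change with Etr1>Bra (y axis) for 9053 genes with a control mean of at least 50, on the log2(normalized count + 1) scale, with the 64 members in red. The dotted line marks a mean T of −0.5 and the dashed line an E 0.3 above T, so the members fill the corner that the rule defines, with KH.S1404.2 far from the rest and next to the dashed line.

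The member with the lowest T, KH.S1404.2, was low with both constructs. Its control libraries held 66.4, 96.8 and 55.4 normalized counts, the Tbx6-r.b>Bra libraries 6.34, 6.52 and 11.21, and the Etr1>Bra libraries 11.6, 10.1 and 10.9. All libraries of both constructs lay below all controls, and both constructs overlapped in level. The mean T was −3.04 ± 0.76 (SD over 3 pairs) and the mean E −2.62 ± 0.48. It entered through a mean E that was 0.42 above its mean T, at levels where a library held few reads: 24 reads over all 3 Tbx6-r.b>Bra libraries against 227 over the controls, a ratio of 0.112 with an exact binomial 95% interval of 0.0702 to 0.171. Such intervals cover counting error only. In pair 3 its level was slightly lower with Etr1>Bra than under Tbx6-r.b>Bra (log2 difference −0.05 with both constructs scaled together). For KH.S1404.2 the description "lower mainly with Tbx6-r.b>Bra" therefore does not hold. Another model with the same scaffold part of its ID, KH.S1404.1, stood at 335 ± 29.0 in control and 387 ± 75.5 with Tbx6-r.b>Bra, and at 491 ± 67.4 with Etr1>Bra (SD, n = 3 each). It was thus not lower with either construct.

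Of the other members with a mean T of −1 or less, all had control means under 100. KH.C12.272 had 87.8, 39.5 and 36.6 normalized counts in the controls, 52.8, 15.2 and 10.3 with Tbx6-r.b>Bra, and 87.7, 26.2 and 23.8 with Etr1>Bra. Replicate 1 was the highest library of every group, so the groups overlapped although each pair had a lower value with Tbx6-r.b>Bra (T of −0.72, −1.32 and −1.74). KH.S1182.1 had 107, 98.7 and 44.2 in the controls, 47.5, 39.1 and 21.5 with Tbx6-r.b>Bra and 77.2, 72.5 and 33.7 with Etr1>Bra. Replicate 3 was low in all 3 groups, and within the pairs T was even at −1.16 ± 0.15, as was E at −0.44 ± 0.05. KH.C6.215 had 63.3, 62.0 and 42.3 in the controls, 39.1, 23.9 and 14.95 with Tbx6-r.b>Bra and 78.2, 51.3 and 26.8 with Etr1>Bra. Its Tbx6-r.b>Bra libraries all lay below the controls, while its Etr1>Bra libraries spanned them, and its E minus T of 0.94 was the largest among the members. KH.C7.378 had 54.1, 51.7 and 63.0 in the controls, 27.5, 21.7 and 33.6 with Tbx6-r.b>Bra and 47.6, 36.2 and 59.5 with Etr1>Bra. Here the Tbx6-r.b>Bra libraries lay below every library of both other groups.

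Some members with more reads showed the same order with a narrow spread. KH.C3.406 had 742, 604 and 616 normalized counts in the controls and 426, 325 and 342 with Tbx6-r.b>Bra, a mean T of −0.85 ± 0.05. Its Etr1>Bra libraries held 855, 449 and 448, so replicate 1 lay above all controls and the other 2 below them, yet all 3 were above every Tbx6-r.b>Bra library. KH.S1961.1 had 345, 337 and 339 in the controls, 202, 196 and 180 with Tbx6-r.b>Bra and 301, 237 and 200 with Etr1>Bra. It was low with both constructs relative to controls that differed by little, with a mean T of −0.82 ± 0.08 and a mean E of −0.50 ± 0.28. Its E minus T of 0.32 was among the 2 values nearest to the limit of 0.3. KH.C7.572 had 351, 273 and 333 in the controls, 223, 174 and 191 with Tbx6-r.b>Bra and 339, 286 and 321 with Etr1>Bra. Its mean T was −0.70 ± 0.09, while its mean E was −0.02 ± 0.07, so that it stayed within 0.1 of control with Etr1>Bra in each pair.

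The mean E was at or above 0 in 3 of the 64 members: KH.C11.160, KH.C4.271 and KH.C13.126, of which KH.C13.126 is named for completing this count of 3 after its values were seen. KH.C11.160 had 294, 360 and 278 in the controls, 219, 236 and 145 with Tbx6-r.b>Bra and 347, 348 and 314 with Etr1>Bra (mean T −0.66 ± 0.26, mean E 0.11 ± 0.15). KH.C4.271 had 1719, 1391 and 1311 in the controls, 1331, 800 and 840 with Tbx6-r.b>Bra and 1830, 1486 and 1459 with Etr1>Bra. In the latter gene every pair was above control with Etr1>Bra (E of 0.08, 0.08 and 0.14) and below it with Tbx6-r.b>Bra (T of −0.37, −0.80 and −0.64). It was the only member with E above 0 in all pairs, where 15.8% of the 9053 genes had such values. KH.C13.126 had a mean T of −0.54 and a mean E of 0.04. Its E was −0.28, 0.28 and 0.10 in the pairs, and its mean E was −0.09 without pair 2.

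**Figure D2:**
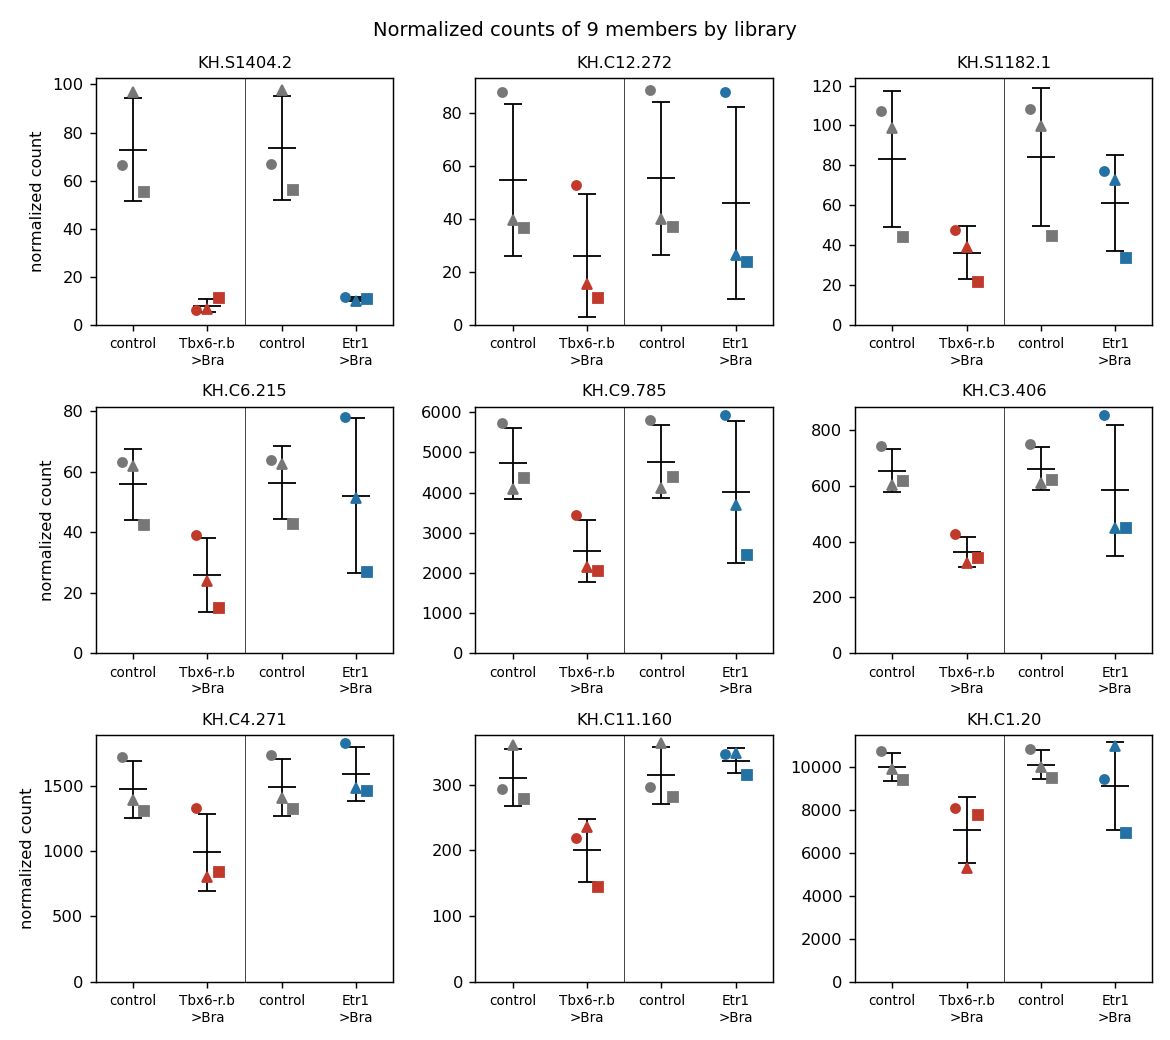
Normalized counts (y axis, from 0) of 9 members in each library, with controls in grey, Tbx6-r.b>Bra in red and Etr1>Bra in blue, circles, triangles and squares for replicates 1, 2 and 3, and bars for mean ± SD (n = 3). Controls appear beside each construct as scaled in that construct's table. KH.S1404.2 is low with both constructs, KH.C4.271 and KH.C11.160 are low with Tbx6-r.b>Bra while their Etr1>Bra means lie above control, and in KH.C9.785 and KH.C6.215 the Etr1>Bra libraries spread from above the controls to well below them.

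The members spanned a wide range of levels. Their control means ran from 50.8 to 9995 normalized counts with a median of 315, against a median of 306 over the 9053 genes. At 1000 counts or more there were 19 members (29.7%, against 19.99% of the 9053 genes), and under 100 counts 20 members (31.3%, against 16.8%). The most abundant 6 members, KH.C1.20, KH.C1.113, KH.L37.70, KH.C4.26, KH.C9.785 and KH.C1.1186, made up 49.3% of the members' summed control level. KH.C9.785 was the lowest of these relative to control: it had 5744, 4079 and 4354 in the controls, 3435, 2160 and 2058 with Tbx6-r.b>Bra and 5925, 3679 and 2441 with Etr1>Bra (mean T −0.91 ± 0.17, mean E −0.33 ± 0.46). KH.L37.70 had 6489, 4412 and 4184 in the controls, 3999, 2900 and 2892 with Tbx6-r.b>Bra and 5457, 4152 and 3761 with Etr1>Bra. Its change was even over the pairs with both constructs, at −0.61 ± 0.08 and −0.18 ± 0.08. KH.C1.113 had 7413, 7425 and 8623 in the controls, 6196, 5017 and 4885 with Tbx6-r.b>Bra and 9625, 6878 and 6403 with Etr1>Bra. Its Tbx6-r.b>Bra libraries lay below every other library, whereas with Etr1>Bra replicate 1 was above all controls and replicates 2 and 3 below them. The median T was −0.62 for members at 1000 counts or more, −0.71 from 100 to 1000 and −0.75 under 100. In the same order the median SD of T over the pairs was 0.30, 0.17 and 0.36. The members were chosen for a mean T of at most −0.5, so no trend with level is read from these medians.

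Together the members held a small share of the transcripts. Their summed normalized count was 75301 ± 5436 in control and 49218 ± 9537 with Tbx6-r.b>Bra, which is 65.4% of control (SD, n = 3). The log2 change of this sum was −0.44, −0.78 and −0.67 in pairs 1, 2 and 3. As a share of gene-assigned reads this was 0.791% ± 0.0438 in control, 0.522% ± 0.0916 with Tbx6-r.b>Bra and, for Etr1>Bra, 0.672% ± 0.118. All Tbx6-r.b>Bra libraries were below all controls in this share, which the choice of members favours, and the Etr1>Bra libraries lay at 0.770%, 0.705% and 0.541%. With Etr1>Bra the log2 change of the sum was 0.04, −0.10 and −0.45 in the 3 pairs, so pair 3 alone was far below control.

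**Figure D3:**
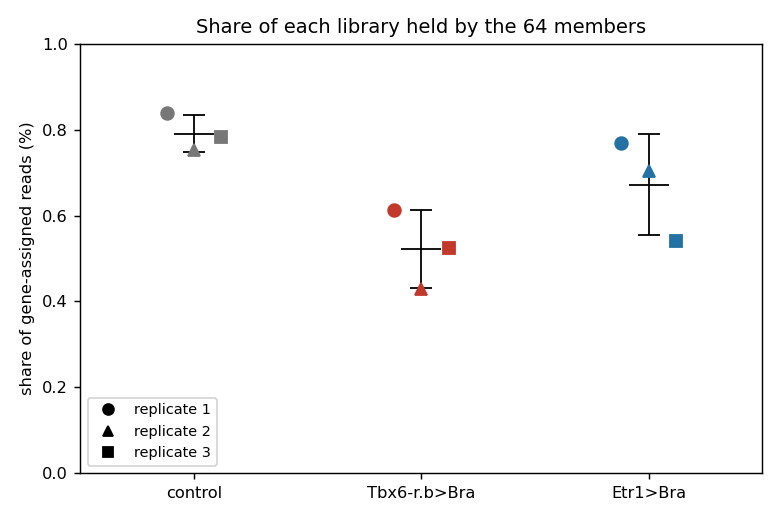
Share of each library's gene-assigned reads held by the 64 members (y axis, percent, from 0), by group, with a symbol per replicate and bars for mean ± SD (n = 3). The Tbx6-r.b>Bra libraries lie between 0.429% and 0.613% and the controls between 0.752% and 0.838%, while Etr1>Bra replicate 3, at 0.541%, lies within the range of Tbx6-r.b>Bra.

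The size of the change differed between the pairs, and in different ways for the 2 constructs. Over the members the median T of pairs 1, 2 and 3 was −0.47, −0.82 and −0.82, and T was lowest in pair 1 for 6 members, in pair 2 for 28 and in pair 3 for 30. In the same order of pairs the median E stood at −0.003, −0.17 and −0.49, against medians between −0.03 and −0.01 over the 9053 genes. E was under 0 for 32 of 64 members in pair 1 (51.8% of the 9053 genes), for 51 in pair 2 (55.1%) and for 61 in pair 3 (55.3%). The 3 members at or above 0 in pair 3 were KH.C4.271, KH.C11.160 and KH.C13.126, the same as those with a mean E at or above 0. In 30 members E was above 0 in pair 1 and under 0 in pair 3, and E was under 0 in all pairs in 22 members (34.4%, against 19.0% of the 9053 genes). The median SD over the pairs was 0.31 for E and 0.25 for T, and that of E was the larger in 44 of 64 members. The rule required T under 0 in every pair and set no such condition on E. The share over all genes is not given, so nothing is read from this count.

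**Figure D4:**
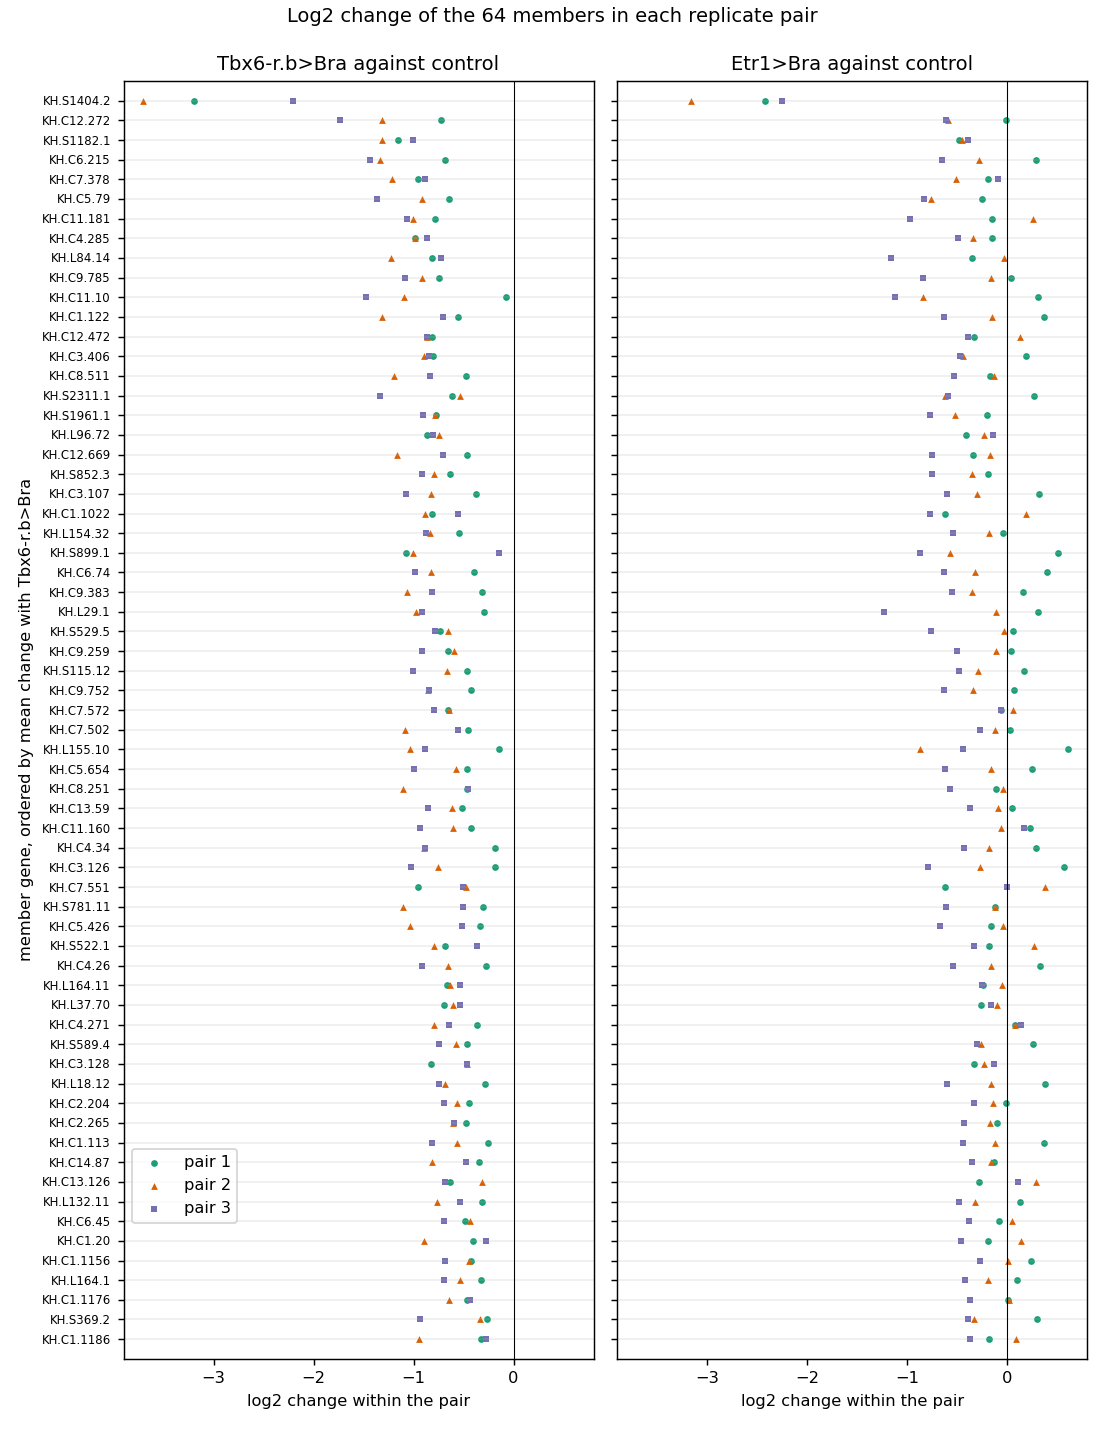
Log2 change of each of the 64 members (rows, ordered by mean T) in pairs 1, 2 and 3, with Tbx6-r.b>Bra on the left and Etr1>Bra on the right, against control of the same number. On the left all points lie under 0 by the rule. On the right the points of pair 3 lie mostly to the left of those of pair 1, with medians of −0.49 and −0.003.

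Grouped by the pair in which T was lowest, after the values were seen, the members' T medians follow from the grouping, and E shares each pair's control with T, so these values are a description. The 30 members lowest in pair 3 had median T of −0.47, −0.65 and −0.92 in pairs 1, 2 and 3, and median E of 0.13, −0.18 and −0.57. KH.C4.26 is one of them, with 5099, 4798 and 4723 in the controls, 4214, 3051 and 2499 with Tbx6-r.b>Bra and 6441, 4334 and 3265 with Etr1>Bra. In it the libraries of both constructs stood highest in replicate 1 and lowest in replicate 3, while the controls were close together. The 28 members lowest in pair 2 had median T of −0.46, −0.98 and −0.71 and median E of −0.13, −0.14 and −0.48. Among them KH.C1.20, the most abundant member, had 10704, 9882 and 9400 in the controls, 8097, 5306 and 7756 with Tbx6-r.b>Bra and 9427, 10977 and 6895 with Etr1>Bra. KH.C1.1186 had 4836, 4865 and 4430, then 3869, 2532 and 3660, then 4296, 5208 and 3463 in the same order. In both, replicate 2 was the lowest Tbx6-r.b>Bra library and the highest Etr1>Bra library, and replicate 3 was lower with Etr1>Bra than under Tbx6-r.b>Bra.

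The difference between the constructs was then read without the controls, on reads of all libraries scaled together. The median log2 difference, Etr1>Bra minus Tbx6-r.b>Bra, stood at 0.50, 0.56 and 0.33 in pairs 1 to 3, against medians from −0.01 to 0.01 over the 9053 genes. All 64 members were higher with Etr1>Bra in pair 1 (51.4% of the 9053 genes), 63 in pair 2 (49.3%) and 53 in pair 3 (51.6%). Thus 52 members were higher in every pair, where 9.19% of the 9053 genes were. The control cancels in E minus T, so this difference is nearly the value by which the rule chose the members. These counts therefore follow largely from the rule, and nothing is read from them. In 11 members, some of them named here after their values were seen, the difference was turned around in pair 3, which include KH.S1404.2, KH.L84.14, KH.S899.1, KH.C1.20 and KH.C1.1186. KH.L84.14 had 540, 293 and 305 with Tbx6-r.b>Bra and 750, 677 and 227 with Etr1>Bra, after 949, 688 and 506 in the controls. For this gene pair 3 alone would have put the lower level with Etr1>Bra. KH.S899.1 had 12.25, 40.4 and 99.6 in the controls, 5.28, 19.6 and 89.7 with Tbx6-r.b>Bra and 18.0, 27.2 and 54.6 with Etr1>Bra. Its control libraries ranged more widely than any difference between groups, and it was the only member that kept a smaller share of its control mean with Etr1>Bra (64.8%) than under Tbx6-r.b>Bra (75.2%).

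Because all libraries had chosen the members, the rule was also applied to 2 pairs at a time and the genes it chose were read in the pair left out. A left-out pair holds a single library per group and genes deviate together within a library, so these gene counts are not replicates. The limits of the rule were set with all libraries known, and 50 to 53 of the genes chosen each time were members. The shares are therefore a description. Leaving out pair 1, it chose 87 genes, of which 82 (94.3%) were below control with Tbx6-r.b>Bra in pair 1, against 52.5% of all genes with a control mean of at least 50. Leaving out pair 2, it chose 70, of which 60 (85.7%) were below control there, against 51.8%. Leaving out pair 3, it chose 112, of which 87 (77.7%) were below control there, against 51.6%. The median T in the left-out pair was −0.36, −0.63 and −0.43 in pairs 1, 2 and 3, against −0.70, −0.65 and −0.64 in the pairs that had chosen the genes. Most genes chosen each time were below control with Tbx6-r.b>Bra in the left-out pair. The members among them have T under 0 there by the full rule, so nothing further is read from these shares.

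Among the genes so chosen, the share higher with Etr1>Bra than under Tbx6-r.b>Bra exceeded that of all genes in left-out pairs 1 and 2. It stood level with that of all genes in left-out pair 3. In left-out pair 1, 79 of 87 genes (90.8%) were higher with Etr1>Bra than under Tbx6-r.b>Bra, against 51.4% of all genes with that control mean. In left-out pair 2 this was so for 60 of 70 (85.7%, against 49.2%). In left-out pair 3 it was so for 58 of 112 (51.8%), and 51.7% of all genes were. The median difference there was 0.03, after 0.54 in the 2 pairs that had chosen the genes. In that pair 93 of the 112 genes (83.0%, against 55.1%) were below control with Etr1>Bra, with a median E of −0.40 beside the median T of −0.43. In pair 3, then, the genes chosen on pairs 1 and 2 were about equally low with either construct. The libraries of a pair share a replicate number and deviate together, and what the numbers stand for is not stated in the labels.

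**Figure D5:**
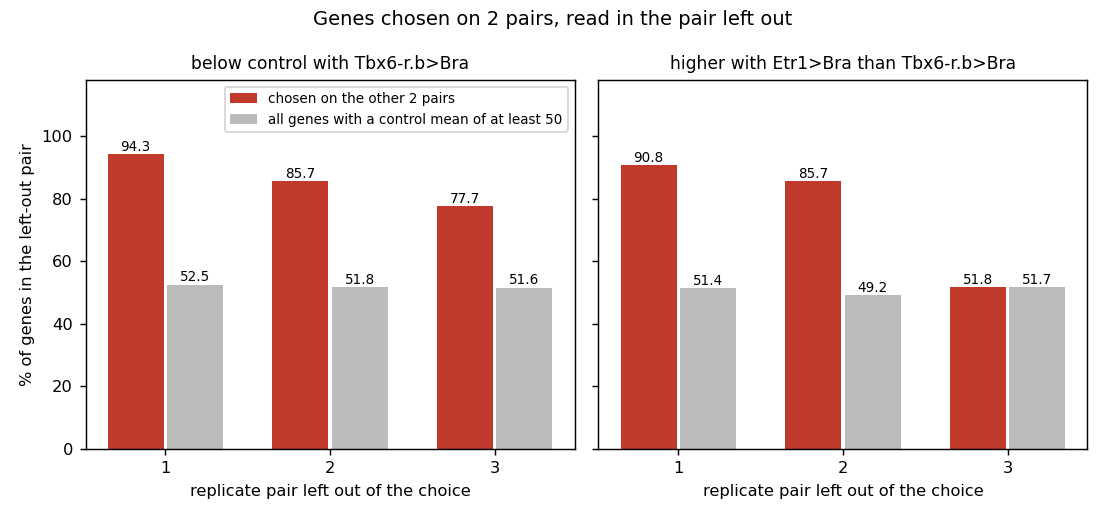
Share of genes (y axis, percent, from 0) in the pair left out of the choice, for genes chosen by the rule on the other 2 pairs (red) and for all genes with a control mean of at least 50 (grey). The left panel counts genes below control with Tbx6-r.b>Bra and the right panel genes higher with Etr1>Bra than under Tbx6-r.b>Bra, where the bars for pair 3 stand level at 51.8% and 51.7%.

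Calls over all genes came from limma, with Benjamini-Hochberg adjustment and a threshold of 0.05, and since the rule used each of these contrasts nothing is read from the members' counts. With Tbx6-r.b>Bra against control, 3 of the 64 members were called lower, KH.S1404.2, KH.C3.406 and KH.S1961.1, and 0.0262% of 11445 genes tested. With the replicate number as a block, 57 members were called lower, and 0.917% of genes. The 3 calls without the block became 1 without any single control or without Tbx6-r.b>Bra replicate 2 or 3, and 14 without its replicate 1. In DESeq2 without the block 20 members were called lower, and 0.175% of genes. The 7 members not called with the block all had control means under 100. With Etr1>Bra against control 1 member was called lower, KH.S1404.2, with and without the block, and 0.00869% of 11514 genes tested without the block and 0.391% with it. DESeq2 called 0.0174% of genes lower there. Between the constructs 63 members were tested, KH.S1404.2 being too low, and none was called without the block (0.0% of 11529 genes higher with Etr1>Bra). At an unadjusted limma p under 0.05, 16 of the 63 were higher with Etr1>Bra, as were 2.18% of genes, and edgeR and DESeq2 without the block also called 0 members. With the block 11 members were called higher with Etr1>Bra, and 1.84% of genes. Among them were KH.C6.215, KH.C9.785, KH.C3.406, KH.C7.572, KH.C11.160 and KH.C4.271. Without any 1 replicate number the 11 became 0 or 1, and the 57 above became 33, 44 and 49 without number 1, 2 or 3. These calls draw on the values that chose the members and show a difference between the constructs for none of them.

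The groups' libraries did not overlap for many members. All 3 Tbx6-r.b>Bra libraries lay below all 3 controls in 46 of 64 members, where 3.3% of the 9053 genes had such values. All 3 Etr1>Bra libraries lay below all controls in 5 members (3.73% of the 9053 genes), and all Tbx6-r.b>Bra libraries lay below all Etr1>Bra libraries in 15 members (2.41%). The first and the last of these counts follow largely from the rule. Of the members of which the controls and the Tbx6-r.b>Bra libraries overlapped, KH.C12.472 shows how: its controls held 211, 58.3 and 72.4 and its Tbx6-r.b>Bra libraries 119, 31.5 and 39.2. Replicate 1 stood far above the others in both groups, and the 3 values of T were nearly alike, at −0.85 ± 0.03. KH.C11.181, which overlapped too, had 97.0, 48.9 and 169 in the controls and 56.0, 23.9 and 80.4 with Tbx6-r.b>Bra. Its T was −0.95 ± 0.15. KH.C4.285 did not overlap, with 281, 164 and 158 in the controls and 141, 82.6 and 86.0 with Tbx6-r.b>Bra. Replicate 1 was its highest library in both groups, and its T was −0.95 ± 0.07. In these genes the ratio within a pair was steadier than the level between pairs. The rule favours this, since it required T under 0 in every pair, and KH.C12.472 had the smallest SD of T among the members. In KH.S899.1, which overlapped too, T was uneven at −1.08, −1.01 and −0.15.

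The limits of the rule fell among genes with like values. Just inside the limit on T were KH.C1.1186 (mean T −0.51) and KH.S369.2 (−0.51), and just outside KH.C6.5 and KH.L10.5, both at −0.50 when rounded. On the control mean, KH.S899.1 (50.8) and KH.S369.2 (50.9) were just inside and KH.L132.13 (45.8) and KH.C10.617 (45.3) just outside. On E minus T, KH.L132.11 (0.31) and KH.S1961.1 (0.32) were just inside and KH.C9.684 (0.28) and KH.C9.520 (0.27) just outside. Another 22 genes met the conditions on T and the control mean and had an E less than 0.3 above T.

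The position of the members, as far as their IDs give it, was not used by the rule. In KH IDs the letter C with a number names the chromosome, and 42 members had such an ID, 65.6% against 71.7% of the 9053 genes. Chromosome 1 held 7 of them (10.9%, against 8.94%), chromosomes 3, 4, 7 and 9 held 4 each, and chromosome 10 held none (3.97% of genes). IDs with the letter S made up 12 members (18.8%, against 8.64%), and those with the letter L 10 (15.6%, against 19.7%). The members differed in level from the 9053 genes, and these shares were neither matched for level nor tested. KH.L164.1 and KH.L164.11 were the only members apart from those on chromosomes that shared the part of the ID before the last number.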

How the data were processed

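The authors deposited 2 tables, 1 per Bra construct, each holding 3 libraries of its construct and all 3 controls. Per the file headers, each holds library-size normalized counts (a signal) and, next to these, regularized log2 counts. Per the submitters' processing notes, TopHat2 2.9.8b and DESeq 1.8.1 were used. The counting tool, strand setting and build were not given in the sources used here, and reads of overlapping, antisense or duplicated genes may be mixed. All normalized values (100% of values, tolerance 0.01) were whole multiples of the value of 1 read, and the whole reads so recovered gave the control libraries the same counts in both tables. Replicates differed by more than sampling noise (chi-square per gene of 11.0 to 34.0, where sampling alone gives about 1).

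Members and lists were chosen with earlier results of these data known. Within a table, construct and control were compared by limma 3.58.1 (R 4.3.3) on log2(normalized count + 1), with a variance trend over level, for genes with a mean of at least 10 over the libraries compared, so a fold change understates that of low genes. All 64 members passed this filter against control. The constructs were compared on recovered reads scaled together by median of ratios. Alternatives included edgeR 4.0.16 and DESeq2 1.42.0 on recovered reads. The procedure was also run on simulated reads. These had no deviation shared by replicate number and larger changes than most members had, so the run does not show how calls behave in these libraries. Libraries of the same replicate number deviated from their group means with correlations of 0.48 to 0.72, and those of different numbers with correlations of −0.10 or less. Deviations from a group mean cancel within the group, so the negative values follow in sum from the positive ones. The rule itself pairs libraries by replicate number, and blocked counts are given beside the others. Named members are the 10 with the lowest mean T, the 10 with the largest E minus T, the 6 with the highest control mean, those with E above 0 in every pair, those at each limit of the rule and those called by limma. Others were named after their values were seen. Marker lists of muscle, notochord and other tissues could not be matched to IDs and were not tested. No sequence is shown, since none could be tied to these IDs.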

Additional observations from a re-analysis of the deposited data

Results flagged for a closer look

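KH.C4.271 is set apart because its log2 change was under 0 in every pair with Tbx6-r.b>Bra (mean −0.60) and above 0 in every pair with Etr1>Bra (mean 0.10). The difference was not tested, because the gene was chosen by it. No check for outlying libraries was made in groups of 3.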

How the results depend on the processing

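The rule kept 64 genes. It kept 59 to 68 with other pseudocounts, with TMM scaling (67) or without the sign in every pair, 94 and 44 at a control mean of at least 20 and 100, and 46 where no overlap of libraries replaced the pairs. It kept 1 with the regularized log2 values, which shrink changes, and 70 to 112 without 1 replicate number, of which 50 to 53 were members. The members' median T of −0.70 was −0.33 with the regularized log2 values and −0.79 to −0.64 without 1 number. The median E of −0.22 became −0.07 without number 3 and kept its sign under the settings tried. No member changed the sign of its mean T without 1 number, which the rule fixes because T was under 0 in every pair. The mean E changed sign in 1 member without number 1, in 2 without number 2, KH.C13.126 (−0.09) and KH.L155.10 (0.08), and in 16 without number 3. Among these 16, the mean E of KH.C1.113 (0.12), KH.C4.26 (0.08), KH.C6.215 (0.002), KH.C11.181 (0.05) and KH.C1.122 (0.10) was above 0 without number 3.

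Counts of calls depended on the tool and the block. Genes called lower with Tbx6-r.b>Bra were 3, all members. They were 105 with the replicate block (57 members), 104 in blocked edgeR (56), 20 in DESeq2 (20), 63 in blocked DESeq2 (39) and 1 at a mean of at least 50 (1). Without a filter 4 genes were called, 1 of them a member. Leaving out single libraries gave 1 to 14 (members 1 to 14), and the block without number 1, 2 or 3 gave 38, 77 and 108 (33, 44 and 49). Genes called lower with Etr1>Bra were 1, a member. They were 45 with the block, 46 in blocked edgeR, 2 in DESeq2 and 21 in blocked DESeq2. Without a filter they were 6 (members 0), and 0 at a mean of at least 50 or with the regularized log2 values (members 0). Leaving out single libraries gave 0 to 9 (members 0 to 1), and the block without number 1, 2 or 3 gave 326, 0 and 32 (members 0 to 23). Genes called higher with Etr1>Bra than under Tbx6-r.b>Bra were 0. They were 212 with the block (members 11), 215 in blocked edgeR (11), 37 in DESeq2, 45 in blocked DESeq2 (4) and 4 without a filter. Leaving out single libraries gave 0 to 62 (members 0), and the block without number 1, 2 or 3 gave 154, 0 and 36 (members 0 to 1). The blocked edgeR and DESeq2 fits were added after seeing the data. Beyond the smaller sample the cause of these shifts was not tested. The counting interval of the ratio to control with Tbx6-r.b>Bra lay wholly under 1 in all 64 members, while replicates differed by more than counting error. The choice of members for a low T largely fixes this count, and the share over all genes was not taken, so nothing is read from it.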

Other observations

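The same rule with the constructs exchanged (control mean at least 50, mean E at most −0.5, E under 0 in every pair, mean T at least 0.3 above mean E) was met by 110 genes. No gene was left out of the 110 by name. The like count for the rule used here is 65, before KH.C3.751 was left out to give the 64 members. The 2 counts share controls and were not compared by a test.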
